A study of Mus musculus with 3 samples.

Results

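The expression of 10 genes of TGF-beta signaling was followed in kidney rudiments that lack Fgfrl1, a receptor-like protein of the FGF receptor family. The genes were chosen by name, as every non-control probe that the scanner files label with the symbol of a TGF-beta ligand (Tgfb1, Tgfb2 and Tgfb3), a TGF-beta receptor (Tgfbr1, Tgfbr2 and Tgfbr3), a matrix partner (Tgfbi and Ltbp1), the activin subunit Inhba or its inhibitor Fst. They were covered by 14 of the 41174 probes on the array, or 10 of the 27745 gene names. All samples came from whole kidney rudiments of C57BL/6 embryos at E12.5, with 3 pools of Fgfrl1-/- rudiments and 3 pools of wildtype rudiments. Each pool held 6 to 9 rudiments, so that the values of single embryos cannot be seen. Each of the 3 arrays carried 1 Fgfrl1-/- pool labelled with Cy3 and 1 wildtype pool labelled with Cy5. Since the dyes were swapped on 0 arrays, dye and genotype cannot be told apart in any value given here.

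TGF-beta ligands are secreted as latent complexes that bind to the extracellular matrix through latent TGF-beta binding proteins such as Ltbp1. Once released, a ligand binds the type II receptor Tgfbr2, which recruits the type I receptor Tgfbr1, and Smad2 and Smad3 carry the signal to the nucleus. Tgfbr3, also called betaglycan, presents ligands to these receptors, and Tgfb2 depends on it more than the other ligands do. Activin A, a dimer of the Inhba product, signals through related receptors to the same Smads and is held back by the binding protein follistatin (Fst). In the embryonic kidney, ligands of this family are known to influence the branching of the ureteric bud and the growth of the mesenchyme around it.

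Each probe is 60 bases long. The first 30 bases, read 5′ to 3′, are shown for the probes on which the results turn, because a value belongs to the stretch of transcript that its probe covers, and because the several probes of Tgfbr2 and Ltbp1 gave different values. Positions are those on mm8 that the scanner files give. No gene annotation of this build was used here, so it was not determined in which exon or untranslated region a probe lies.
Tgfb3 A_51_P124748: tcccatgtctgacatgatgactcggcccca
Tgfbi A_51_P212754: aaatgtgaatcaagcagtccggcattctgg
Tgfbr2 A_51_P450573: tctagcggggaatttacagaatgctggtcc
Tgfbr2 A_52_P251403: gaagctgatggatttcagtgacaactgcgc
Tgfbr2 A_52_P3811: ctgaagcataaaccactcctattttttctg
Ltbp1 A_51_P281716: ctgacaggtgcaacagaccaaatggacatt
Ltbp1 A_52_P189946: ggggagtcacgtcatccattccacacatac
Fst A_51_P381821: gatccattggattagcctatgagggaaagt

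The probe of Tgfb3 maps to chr12:86945957-86946016 on the minus strand, that of Tgfbi to chr13:56648721-56648780 on the plus strand, and that of Fst to chr13:115575362-115576034 on the minus strand. The ends of the Fst probe lie 613 bases further apart on the genome than the probe is long. The 3 probes of Tgfbr2 are spread along the minus strand of chromosome 9. A_51_P450573 (chr9:115936735-115936794) is the one farthest downstream, A_52_P251403 lies 22041 bases upstream of it and A_52_P3811 lies 42690 bases upstream. The second probe of Ltbp1, A_52_P189946 (chr17:75130373-75130432), lies 165405 bases upstream of A_51_P281716 (chr17:75295778-75295911) on the plus strand.

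The arrays did not resemble each other equally. Over all probes, the log2 ratios of arrays 2 and 3, which lay on 1 slide, correlated with r = 0.713, while array 1, on another slide and read with another version of the scanner software, correlated with them at r = 0.106 and r = 0.222. These correlations are across probes, which are not independent replicates. Between 57.1% and 80.2% of the probes were well above background in an Fgfrl1-/- channel and between 60.9% and 65.0% in a wildtype channel, and no spot was saturated. Fgfrl1 itself was lower in the Fgfrl1-/- pool on each array, with a log2 ratio of -1.21, -1.51 and -1.83 (limma, adjusted p = 0.0332). Whether its probe lies in the deleted part of the gene is not given in the sources used here. Among the cell type markers, all 5 early nephron genes were lower in the mean (median log2 fold change -1.72), and 3 of them passed the test.

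Tgfb3 was the only member that passed the test, under a threshold that Fst, Tgfbr2 and Tgfbi missed narrowly. Its mean log2 ratio of Fgfrl1-/- over wildtype was 1.12 (SD 0.326, n = 3 arrays), a 2.17-fold higher signal in the mutant rudiments, whereas no member passed the test in the other direction. Tgfbi and Tgfbr2 had higher mean signals and Fst a lower one in the Fgfrl1-/- pools, with signals of the 2 genotypes that did not overlap, but their adjusted p-values lay above 0.05. The other members differed by less, or differed unequally from array to array.

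Over all probes, limma called 119 probes higher (0.289%) and 164 probes lower (0.398%) in Fgfrl1-/- at an adjusted p below 0.05, the threshold used throughout, with p-values adjusted over all 41174 probes by the method of Benjamini and Hochberg. Of the 14 probes of the TGF-beta genes, 1 was called higher (7.14%) and 0 were called lower. A single call is too few to set this share apart from the background. Without array 2 or without array 3, limma called 0 probes in either direction, and without array 1 it called 3494 higher and 4172 lower. At an unadjusted p below 0.05, 3 of the 14 probes were higher (21.4%) and 1 was lower (7.14%), against 7.69% and 8.20% of all probes. For 4 of the 14 probes (28.6%), the signals of the 3 Fgfrl1-/- pools and the 3 wildtype pools did not overlap, against 14.0% of all probes. The median log2 fold change of the 14 probes was 0.05, and that of all probes was 0.0037. The median absolute log2 fold change was 0.14 for the members and 0.09 for all probes.

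**Figure D1:**
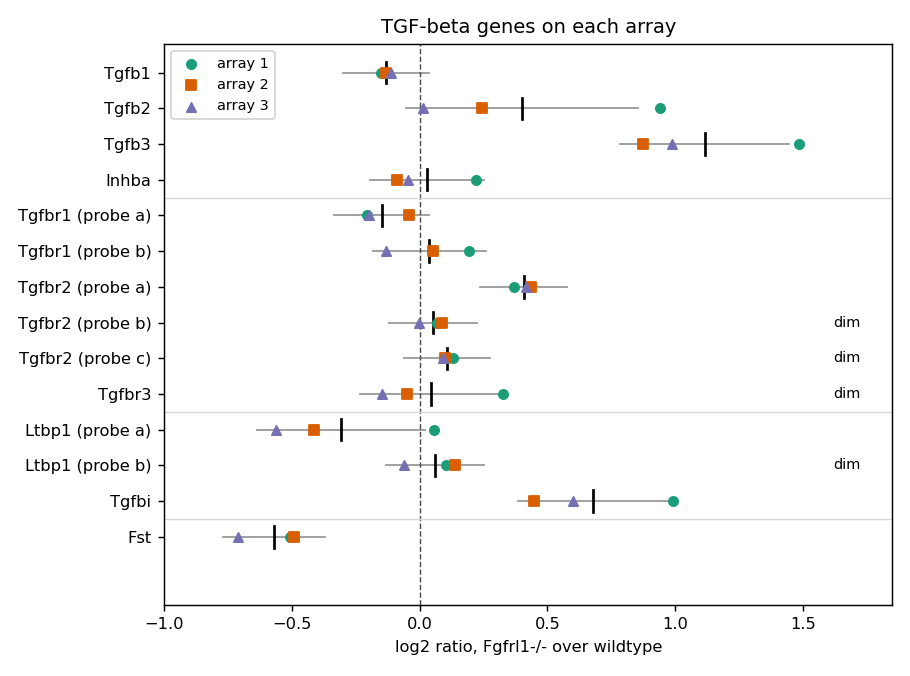
The x axis gives the log2 ratio of Fgfrl1-/- over wildtype, with a circle, a square and a triangle for arrays 1, 2 and 3 of each of the 14 probes, a black bar for the mean and a grey line for its 95% confidence interval from limma. Probes of 1 gene are lettered from the brightest, "dim" marks probes that were not well above background in all 6 channels, and all 3 points of Tgfb3, Tgfbi and the first Tgfbr2 probe lie to the right of 0, those of Fst to the left.

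Among the ligands, Tgfb3 is best known for its part in palate fusion and is also made by mesenchyme of many organs. Its normalized log2 signal was 12.07, 12.30 and 12.33 in the Fgfrl1-/- pools, taken in the order of the arrays, and 10.58, 11.42 and 11.34 in the wildtype pools. All 3 Fgfrl1-/- pools lay above all 3 wildtype pools, and the wildtype pool of array 1 was the lowest of the 6. The log2 ratio was 1.49, 0.87 and 0.99 on arrays 1, 2 and 3, with a 95% confidence interval of the mean from 0.79 to 1.45 and an adjusted p of 0.0432 in limma. By its mean log2 ratio, the probe held rank 5 from the top of all 41174 probes. The call was close to the threshold and depended on the arrays used. Without array 2 the log2 ratio was 1.24 with an adjusted p of 0.295 in limma, and without array 3 it was 1.18 with an adjusted p of 0.471. Without array 1 it was 0.93 with an adjusted p of 8.8e-06. Arrays 2 and 3 lay on the same slide. The p-values without array 1, here and for other genes, thus take in no spread between slides. Under the 17 processing alternatives, the mean for Tgfb3 ranged from 0.78 to 1.24, and it passed the threshold in limma under 6. Aquantile normalization leaves the ratios and the fit as they were, so its pass was fixed in advance. Of the other 16 alternatives, Tgfb3 passed under 5. Its mean stayed at 1.12 with Aquantile normalization, with dim probes left out and with outlier spots kept. The same held for the brightest or the averaged probes of a gene, for a trend and robust variances, and for separate channels. Where its mean changed, Tgfb3 passed only without array 1.

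Tgfb2, a ligand expressed in many embryonic epithelia and in the mesenchyme, gave a mean log2 ratio of 0.40 (SD 0.483, n = 3) that did not pass the test (limma, adjusted p = 0.374). Its normalized log2 signal was 12.35, 10.86 and 10.56 in the Fgfrl1-/- pools and 11.41, 10.62 and 10.55 in the wildtype pools. The genotypes overlapped, and both pools of array 1 were brighter than the other 4 pools. Array 1 made most of the mean, with a log2 ratio of 0.94 where the other arrays had 0.24 and 0.02. Without array 1 it was 0.13.

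Tgfb1, the ligand most often linked to fibrosis in the adult kidney, was printed in 10 spots on each array, more than any other member. Their log2 ratios averaged -0.15, -0.13 and -0.11 on arrays 1, 2 and 3, with an SD among spots of 0.162, 0.0862 and 0.126. On array 1 they ranged from -0.48 to 0.11, on array 2 from -0.28 to 0.01 and on array 3 from -0.36 to 0.05. The mean over arrays was -0.13 (SD 0.020, n = 3) and did not pass the test (limma, adjusted p = 0.431), with a 95% confidence interval from -0.30 to 0.04. The median SD among spots was 0.116 over the 245 probes with 10 or more spots. The signals of the 2 genotypes overlapped, with 7.19, 6.95 and 6.97 in the Fgfrl1-/- pools and 7.34, 7.08 and 7.08 in the wildtype pools.

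Inhba, the subunit of activin A, showed a log2 ratio of 0.22 on array 1 but of -0.09 and -0.04 on the others. The mean was 0.03 (SD 0.167, n = 3; limma, adjusted p = 0.928), and its 95% confidence interval ran from -0.19 to 0.25. The signals overlapped, from 7.16 to 8.01 in the Fgfrl1-/- pools and from 7.20 to 7.79 in the wildtype pools.

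**Figure D2:**
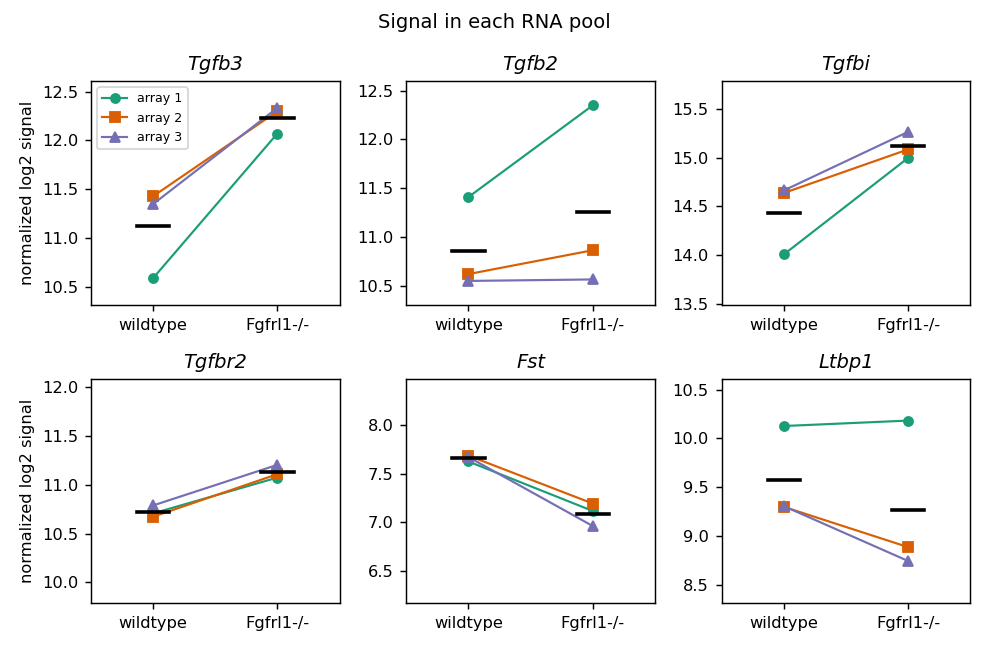
The y axis of each panel gives the normalized log2 signal of 1 probe and spans the same range of log2 units, and each line joins the wildtype pool to the Fgfrl1-/- pool of the same array, with black bars for the means of 3 pools. Every line rises for Tgfb3, Tgfbi and Tgfbr2 and falls for Fst, while the pools of array 1 stand apart for Tgfb2 and Ltbp1.

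Of the receptors, Tgfbr2 gave the most even values. The probe A_51_P450573 had a normalized log2 signal of 11.07, 11.11 and 11.20 in the Fgfrl1-/- pools and 10.71, 10.67 and 10.79 in the wildtype pools. All Fgfrl1-/- pools lay above all wildtype pools, and the gap was nearly the same on each array, with log2 ratios of 0.37, 0.44 and 0.42. The SD over arrays was 0.035, compared with a median of 0.133 over all probes. The mean was 0.41, or 1.33-fold, with a 95% confidence interval from 0.24 to 0.58, and it missed the threshold in limma (adjusted p = 0.0796). It fell to 0.11 when the arrays were centred on their median in place of the loess curve, and to 0.19 when the 3 probes of the gene were averaged. When the channels were fitted separately, Tgfbr2 passed with an adjusted p of 0.0393, and without array 1 with an adjusted p of 0.0016.

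The other probes of Tgfbr2, both upstream, were hardly measured. A_52_P251403 and A_52_P3811 were well above background in 1 of the 3 Fgfrl1-/- channels and in 0 of the 3 wildtype channels. Their mean log2 ratios were 0.05 (limma, adjusted p = 0.797) and 0.11 (adjusted p = 0.532). Their 95% confidence intervals ran from -0.12 to 0.22 and from -0.06 to 0.28. Both values depended on the background correction, so these intervals do not bound a change. At a normexp offset of 0, A_52_P3811 gave 0.65 (limma, adjusted p = 0.383), and in the scanner ratios A_52_P251403 gave -0.46 (adjusted p = 0.693). The probe of Tgfbr3 was detected equally rarely. Its log2 ratios were 0.33, -0.05 and -0.15 on arrays 1, 2 and 3, which differ in sign, and the 95% confidence interval of the mean ran from -0.23 to 0.32.

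Tgfbr1, the kinase that phosphorylates Smad2 and Smad3, was measured by a pair of probes that were well above background in all 6 channels. The probe A_52_P4538 gave normalized log2 signals of 11.33, 11.94 and 12.00 in the Fgfrl1-/- pools and 11.53, 11.98 and 12.20 in the wildtype pools. The Fgfrl1-/- pool was the lower one on each array, but the genotypes overlapped. The mean log2 ratio was -0.15 (SD 0.093, n = 3; limma, adjusted p = 0.423), with a 95% confidence interval from -0.34 to 0.04. The probe A_51_P280137, which starts 7523 bases upstream, gave 0.04 (adjusted p = 0.897) with log2 ratios of 0.19, 0.05 and -0.13. The probes thus differed in the sign of their means, and neither passed the test.

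Among the matrix partners, Tgfbi, a secreted protein that is induced by TGF-beta and binds collagens and integrins, had a mean log2 ratio of 0.68 (SD 0.280, n = 3), or 1.60-fold. Its normalized log2 signal was 15.00, 15.09 and 15.27 in the Fgfrl1-/- pools and 14.01, 14.64 and 14.66 in the wildtype pools. The genotypes did not overlap, and the wildtype pool of array 1 was again the lowest of the 6. The log2 ratios were 0.99, 0.45 and 0.60, with a 95% confidence interval of the mean from 0.38 to 0.98, and the probe ranked 158 from the top of all probes. It did not pass the test (limma, adjusted p = 0.0840). With median centring in place of loess, the mean fell to 0.16 (adjusted p = 0.942), and without array 1 it was 0.53 and passed (adjusted p = 5.6e-04).

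Ltbp1, which ties latent TGF-beta to the matrix, was unequal between the slides. The probe A_51_P281716 gave a log2 ratio of 0.06 on array 1 but of -0.41 and -0.56 on arrays 2 and 3. The normalized log2 signals were 10.18, 8.88 and 8.74 in the Fgfrl1-/- pools and 10.13, 9.30 and 9.31 in the wildtype pools. Both pools of array 1 were the brightest, and the genotypes overlapped. The mean was -0.31 (SD 0.323, n = 3) and did not pass the test in limma (adjusted p = 0.348), but without array 1 it was -0.49 and did (adjusted p = 8.7e-04). The upstream probe, A_52_P189946, was well above background in 2 of 3 channels of each genotype and gave a mean of 0.06 (adjusted p = 0.792).

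Fst, the inhibitor of activin, was the only member with an unadjusted p below 0.05 in the lower direction (limma, unadjusted p = 5.4e-04). Its normalized log2 signal was 7.12, 7.19 and 6.96 in the Fgfrl1-/- pools and 7.62, 7.68 and 7.67 in the wildtype pools. The genotypes did not overlap, and the wildtype pools were nearly equal. The log2 ratios were -0.51, -0.49 and -0.71, with a mean of -0.57 (SD 0.121, n = 3) and a 95% confidence interval from -0.77 to -0.37. The signal was thus 1.48-fold lower in Fgfrl1-/-, ranking 264 from the bottom of all probes, with an adjusted p of 0.0591 in limma. Fst passed the threshold in 2 of 17 alternatives, with separate channels (adjusted p = 0.0275) and without array 1 (adjusted p = 2.9e-04). Its log2 ratio was -1.03 in the ratios of the scanner software, where it did not pass (adjusted p = 0.161).

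**Figure D3:**
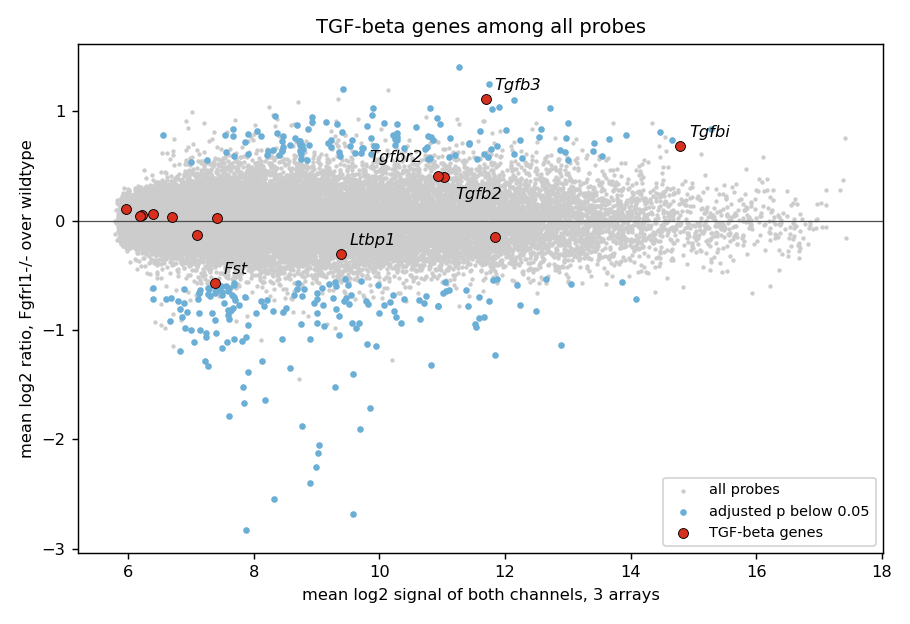
The x axis gives the mean log2 signal over both channels and 3 arrays and the y axis the mean log2 ratio of Fgfrl1-/- over wildtype, with all probes in grey, those with an adjusted p below 0.05 in limma in blue and the 14 probes of the TGF-beta genes in red. Tgfb3, at 1.12, lies near the upper edge of the cloud, Tgfbi and Fst lie at its borders, and most other red points lie within 0.2 of 0.

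The order of the mean log2 ratios, taking for each gene its brightest probe and leaving out Tgfbr3, which was hardly measured, ran from Tgfb3 over Tgfbi, Tgfbr2, Tgfb2, Inhba, Tgfb1, Tgfbr1 and Ltbp1 to Fst. The confidence intervals of Tgfb3 and Tgfbi overlapped, as did those of Tgfbi, Tgfbr2 and Tgfb2, and those of the genes from Inhba to Ltbp1. Those of Tgfbr2 and Inhba and those of Ltbp1 and Fst overlapped as well. The wide interval of Tgfb2, from -0.05 to 0.85, overlapped those of all the others but Fst, so the order does not fall into separate groups. Differences between members were not tested, since the order is that of the measured values themselves.

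To see whether the rest of the pathway moved with these genes, 57 further genes were examined by their brightest probe, in 5 lists that held 58 names. Lrrc32 was not found under its name. Of the 57 genes, 4 were called higher in Fgfrl1-/- by limma (7.02%, against 0.289% of all probes) and 0 were called lower. The share over all probes also counts dim probes and the weaker probes of a gene. When only the brightest probe of every gene was tested, limma called 0.451% higher and 0.530% lower. Of the pathway genes, 5 were then higher and 0 lower. Without array 2 or array 3, 0 of the 57 genes were called. Without array 1, 12 were called higher and 10 lower, in a fit that called 8.49% of all probes higher and 10.1% lower. At an unadjusted p below 0.05, 12 were higher (21.1%) and 4 were lower (7.02%), against 7.69% and 8.20% of all probes. The median log2 fold change of the 57 genes was 0.04, and that of all probes 0.0037. The lists were written with earlier results of these data known.

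Among the 14 measured genes of ligand storage and activation, 1 was called higher and 10 were higher in the mean, with a median log2 fold change of 0.16. The called gene was Ltbp3, a latent TGF-beta binding protein like Ltbp1, whose log2 ratios of 0.99, 0.67 and 0.67 averaged 0.78 (SD 0.188, n = 3; limma, adjusted p = 0.0442). Its second probe gave 0.34 (adjusted p = 0.167). Besides Ltbp3, 4 genes of this list had an unadjusted p below 0.05 and a higher mean, but did not pass in limma. Dcn, which encodes the TGF-beta binding proteoglycan decorin, reached 0.89 (adjusted p = 0.0527) and Fbn2, a microfibril protein, 0.63 (adjusted p = 0.0668). Furin, the protease that cleaves the TGF-beta precursors, reached 0.49 (adjusted p = 0.0706), and the integrin subunit Itgb8, which takes part in the release of the ligand, also 0.49 (adjusted p = 0.201).

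Of the 14 TGF-beta responsive genes, 3 were called higher, and the median log2 fold change was 0.08. Postn, the matricellular protein periostin, had log2 ratios of 1.17, 1.10 and 0.85, which averaged 1.04 (SD 0.171, n = 3; limma, adjusted p = 0.0336). Its normalized log2 signal ranged from 12.03 to 12.94 in the Fgfrl1-/- pools and from 11.18 to 11.76 in the wildtype pools, without overlap. Col1a1, a chain of type I collagen, had a mean of 0.84 by its brightest probe (SD 0.181, n = 3; adjusted p = 0.0416), while its other probes gave 0.95 (adjusted p = 0.0591) and 0.04 (adjusted p = 0.921). With median centring in place of loess, the brightest probe of Col1a1 fell to 0.29 (adjusted p = 0.852), and Postn gave 0.69 (adjusted p = 0.202). Cdkn2b, an inhibitor of cyclin D kinases, had a mean of 0.78 (SD 0.104, n = 3; adjusted p = 0.0379) and was well above background in all 3 Fgfrl1-/- channels but in 1 of the 3 wildtype channels. Its size depended on the background correction, with a mean of 1.75 at a normexp offset of 0 and of 2.86 in the scanner ratios, where it did not pass. Fn1, fibronectin, had 0.72 (adjusted p = 0.0694). Ccn2, an immediate target at -0.14, did not pass, nor did the smooth muscle genes Acta2, at -0.16, and Tagln, at 0.15. Their ratios differed in sign between arrays. On arrays 1, 2 and 3, Ccn2 had 0.47, -0.43 and -0.46, Acta2 -0.26, 0.03 and -0.26, and Tagln 0.83, -0.31 and -0.08. Lox, a collagen crosslinking enzyme, and the transcription factor Snai1 had unadjusted p-values below 0.05 in the lower direction, at -0.31 (limma, adjusted p = 0.116) and -0.39 (adjusted p = 0.157).

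The intracellular and receptor lists held no gene that passed. Of 14 Smads and regulators, 9 were higher and 5 lower in the mean, with a median of 0.03. Smad2 gave -0.45 (limma, adjusted p = 0.0930) and Smad3 0.34 (adjusted p = 0.179), although both carry the same signal. Bambi, a decoy receptor for this family, gave -0.37 with an SD of 0.031 (adjusted p = 0.0881), and the co-repressor Tgif2 gave 0.23 (adjusted p = 0.223). The inhibitory Smad7, a standard feedback target of the pathway, gave -0.10 (adjusted p = 0.698). Of 7 related receptors, 0 had an unadjusted p below 0.05 in limma, and their means ranged from -0.09 to 0.16. Of 8 activin and inhibin relatives, only Fstl1, a follistatin-like glycoprotein, had one, at 0.38 (adjusted p = 0.125).

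**Figure D4:**
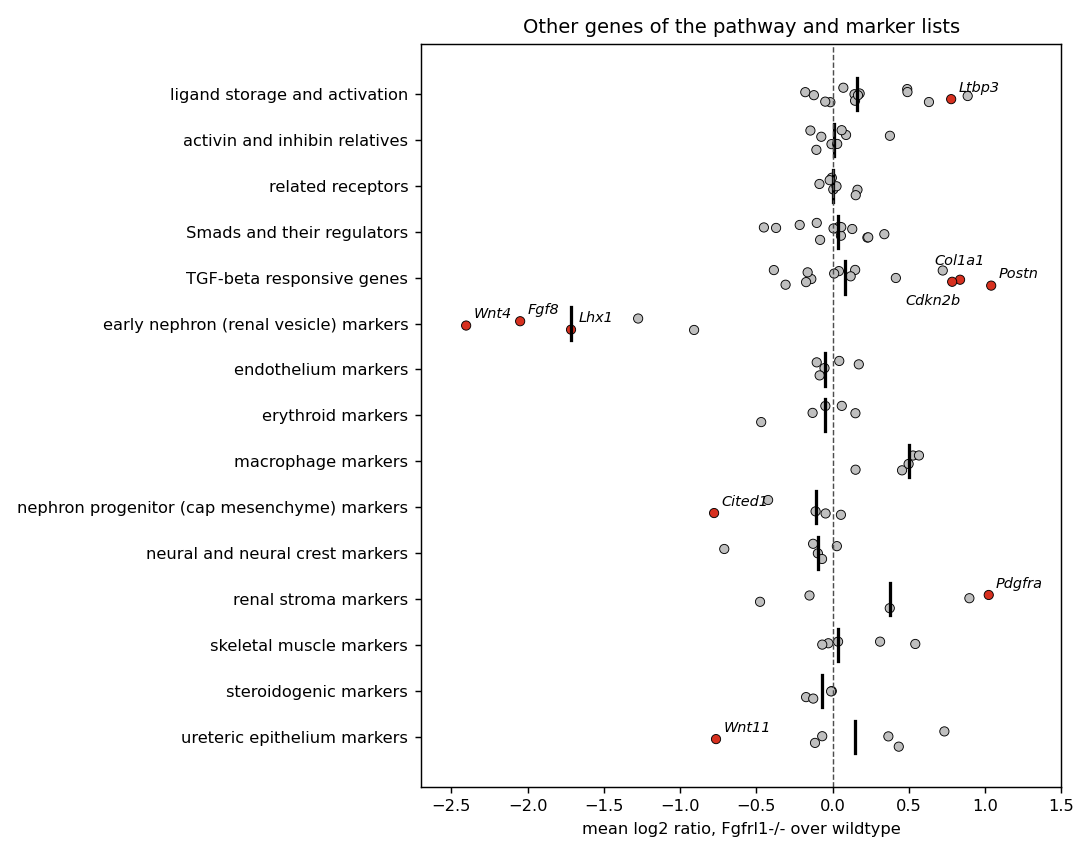
The x axis gives the mean log2 ratio of Fgfrl1-/- over wildtype, with 1 point per gene at its brightest probe in 5 lists of pathway genes and 10 lists of marker genes (points are spread vertically to separate them), red for an adjusted p below 0.05 in limma and a black bar for the median of each list. The 4 called pathway genes, Ltbp3, Postn, Col1a1 and Cdkn2b, lie between 0.78 and 1.04, and among the markers the early nephron genes lie farthest to the left.

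The marker lists of the cell types in the rudiment differed in direction. Of 5 renal stroma markers, 3 were higher in the mean, with a median log2 fold change of 0.37, and their summed linear signal was 32994 to 42926 in the Fgfrl1-/- pools and 19829 to 27496 in the wildtype pools. Foxd1 alone made 49.1% to 75.7% of this sum, and without it the sum was 10116 to 10878 against 8023 to 10103. Pdgfra, the receptor that marks interstitial mesenchyme, passed in limma with 1.02 (adjusted p = 0.0274) by the brightest of its 2 probes, while the other did not pass. Foxd1, the defining transcription factor of the renal stroma, gave 0.90 (limma, adjusted p = 0.0570) by its brightest probe and 0.78 (adjusted p = 0.0419) by the other. Tcf21, at -0.48 (adjusted p = 0.127), and Tbx18, at -0.15, were lower. All 5 macrophage markers were higher in the mean and 0 were called (median 0.50), with a summed signal of 1983 to 2782 against 1533 to 1699. No marker of either list was at 0, since all 10 were well above background in all 6 channels. Of 6 ureteric epithelium markers, 3 were higher and 3 lower in the mean (median 0.15), with Wnt9b at 0.73 (limma, adjusted p = 0.0661) and Wnt11 called lower at -0.76 (adjusted p = 0.0408). Ret, counted among the lower ones at -0.07, was well above background in 0 of the 6 channels, so its direction was not measured. Of 5 cap mesenchyme markers, Cited1 was called lower at -0.78 (adjusted p = 0.0442), and the median was -0.11. The medians of the endothelial, erythroid, muscle, neural and steroidogenic lists lay between -0.10 and 0.04. The part of these cell types in the results for Tgfb3, Tgfbi, Ltbp3, Postn and Col1a1 was not tested. In whole rudiments, more cells of a type and more RNA per cell cannot be told apart.

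The pattern of Tgfb3 over the 3 arrays was compared with that of 14935 other genes whose brightest probe was well above background in all 6 channels. The 5 closest, by the Euclidean distance between the 3 log2 ratios, were Cdh16 at 0.197, Ntng1 at 0.395, Foxd1 at 0.400, Sned1 at 0.407 and Col16a1 at 0.409. Cdh16, a cadherin of renal tubular epithelium, had log2 ratios of 1.40, 0.78 and 1.14 (limma, adjusted p = 0.0429). Foxd1 had 1.23, 0.75 and 0.70. The others were Ntng1, a netrin-related guidance protein, Sned1, a matrix protein, and Col16a1, a fibril-associated collagen, with mean log2 ratios of 0.93, 0.92 and 0.92 that did not pass the test. With the probes of a gene averaged, the means of Ntng1, Sned1 and Col16a1 fell to 0.37, 0.39 and 0.45, while Foxd1 gave 0.84 and Cdh16 1.11. All of these 5 genes had their highest ratio on array 1, like Tgfb3, a likeness for which they were picked. With 3 arrays, such a likeness is a description only.

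**Figure D5:**
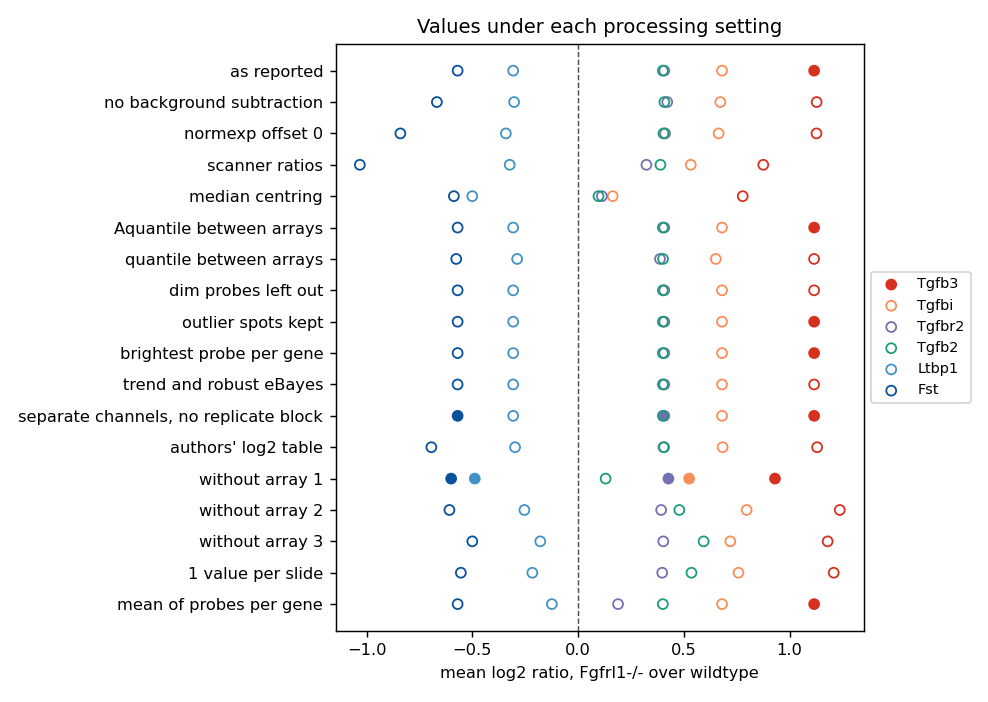
The x axis gives the mean log2 ratio of Fgfrl1-/- over wildtype for 6 genes (1 probe each, except in the last line, where the probes of a gene are averaged) as reported and under 17 processing alternatives, with filled circles for an adjusted p below 0.05 in limma. Tgfb3, Tgfbi, Tgfbr2 and Tgfb2 stay to the right of 0 and Ltbp1 and Fst to the left in every line, Tgfbi and Tgfbr2 come closest to 0 with median centring, and the largest number of filled circles, 5, stands in the line without array 1.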

How the data were processed

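Gene expression was measured on 3 Agilent arrays read in 2 colours, each with 1 Fgfrl1-/- pool and 1 wildtype pool. The scanner tables that the authors deposited, made with Agilent Feature Extraction, hold raw median intensities of every spot and of its background, and a log10 ratio per spot. Array 1 was read with version 9.5.3.1 and the others with 10.5.1.1, while the submitters' processing notes name version 10. A deposited table of processed log2 values, whose normalization steps are not given in the sources used here, runs as Fgfrl1-/- over wildtype, since it correlates positively with the scanner ratios turned that way. Its array medians are -0.018, 0 and 0.003 and it served as an alternative.

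Median signals were corrected with limma 3.58.1 in R 4.3.3 (normexp, offset 50) and normalized by loess. Spots flagged as outliers were dropped and spots of a probe averaged. The log2 ratios were fitted with an intercept only (lmFit, eBayes, 2-sided), which pairs the pools of an array, and p-values were adjusted over all probes. The scripts were tested on simulated data. Signals per pool came from loess followed by Aquantile normalization. All probes of the 10 genes were named, and in each list every gene whose brightest probe passed the test; list genes with an unadjusted p below 0.05 and those given as examples were chosen after their values were seen. The genes and lists were chosen with earlier results of these data known. The 17 alternatives changed the background correction, the normalization, the filters, the handling of probes, the test and the arrays used. Per the study's methods, wildtype and knock-out mice were littermates and the RNA preparations were individual ones. Which litters went into which pool is not given in the sources used here, so the p-values cannot be read as a spread between litters. In the main fit they rest on the spread of the paired log2 ratios from array to array. For each probe, eBayes draws this spread toward that of all probes, so the confidence intervals are not set by its own SD alone. Pools, slides and versions of the scanner software all enter this spread and cannot be told apart. Arrays that lay on the same slide were treated as independent in this fit. The fit without array 1 used only arrays 2 and 3, both of the same slide, so its p-values take in no spread between slides. The number of arrays limits the precision.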

Additional observations from a re-analysis of the deposited data

How the results depend on the processing

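Both calls and values moved with the processing. Against 119 probes called higher and 164 lower, with 1 TGF-beta probe called higher (Tgfb3), limma called 72 and 117 without background subtraction, 0 and 0 with a normexp offset of 0 and with the scanner ratios (4852 and 6118 probes then had an unadjusted p below 0.05), 2 and 91 with median centring, 15 and 50 with quantile normalization, 7 and 34 with dim probes left out, 0 and 6 with a trend and robust variances, 4 and 32 in the authors' table and 0 and 0 with 1 value per slide, an alternative chosen after seeing the data. In each of these 9 alternatives, 0 TGF-beta probes were called in either direction. The share of higher among all calls, 42.0%, became 2.15%, 23.1% and 11.1% with median centring, quantile normalization and the authors' table. With separate channels and no replicate block, the pools of an array were tied by an intraspot correlation of 0.450 shared by all probes. This fit in limma called 224 probes higher and 236 lower. Of these, 2 were TGF-beta probes that were higher (Tgfb3 and Tgfbr2) and 1 was a TGF-beta probe that was lower (Fst). With 1 array left out, the calls ranged from 0 to 3494 higher and from 0 to 4172 lower, and those of TGF-beta probes from 0 to 3 higher and from 0 to 2 lower. All calls of these fits came without array 1, where Tgfb3, Tgfbi and Tgfbr2 passed as higher and Ltbp1 and Fst as lower, and 3711 and 3141 probes had an unadjusted p below 0.05 without arrays 2 and 3. The 4 called pathway genes became 0 in 9 alternatives and 1 with quantile normalization. Without array 1 there were 12 higher and 10 lower, where 8.49% and 10.1% of all probes were called.

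The values of Tgfb1, Tgfb2, Tgfb3, Tgfbi, Fst and the brightest probes of Tgfbr1, Tgfbr2 and Ltbp1 kept their sign under all 17 alternatives. Not every alternative could turn a sign. The means of these probes did not change with Aquantile normalization, dim probes left out, outlier spots kept or the brightest probe per gene. The same held with a trend and robust variances, with separate channels and, for genes with 1 probe, with probes averaged. Elsewhere the sizes moved, from 0.16 to 0.80 for Tgfbi, from 0.11 to 0.43 for Tgfbr2 and from 0.10 to 0.59 for Tgfb2. So did those of Col1a1, from 0.29 to 0.94, and Cdkn2b, from 0.73 to 2.86. The median over the TGF-beta probes moved between -0.00084 and 0.12, its values without array 1 and without array 3, and stayed within its SD over arrays (0.108) of the reported 0.05. Signs turned for probes near 0. Ltbp1 A_52_P189946 became -0.013 without background subtraction, -0.017 in the authors' table and -0.12 with the probes of a gene averaged. Tgfbr2 A_52_P251403 became -0.46 and Tgfbr3 -0.58 in the scanner ratios. Without array 1, Tgfbr3 became -0.099, Inhba -0.066 and Tgfbr1 A_51_P280137 -0.039 (up to 0.14, 0.089 and 0.12 without another array), and the last of them -0.055 with probes averaged. The cause was not tested. The slide as a random block could not be fitted.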
